A study of Mus musculus with 8 samples.

Results

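The genes described here encode 4 inhibitory surface receptors of B cells, Cd22, Cd72, Fcgr2b and Cd5, and 3 phosphatases that act beneath such receptors, Ptpn6, Inpp5d and Ptpn22. They were found as every probe set whose only platform gene symbol was 1 of these 7 names, out of 8252 genes with such a probe set. The 7 genes had 9 probe sets, since Inpp5d and Ptpn22 each had 2 and the other 5 genes 1 each. Of the 9, 8 were bright enough to be tested, and every gene kept at least 1.

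RNA of mouse follicular B cells, the recirculating naive cells of lymphoid follicles, was measured on 8 single-colour oligonucleotide arrays. The cells carried a B cell receptor against hen egg lysozyme (HEL), in all groups. The 2 arrays of each group are numbered by experiment in their titles. The groups were IgMG cells with HEL, IgMG cells unstimulated, IgM cells with HEL and IgM cells unstimulated. IgMG is a chimera in which IgM has the extracellular spacer, the membrane-spanning part and the cytoplasmic tail of IgG1. The sources used here do not give strain, age, transgene promoter or length of stimulation. Each array pooled 5 to 8 mice for IgMG and 2 or 4 mice for IgM, in 1 to 3 sorts, so receptor and number of mice cannot be told apart. The 2 arrays of each group differed in the number of mice pooled, so they were not 1 pool measured again. Nothing in the labels says that arrays came from separate mice or cultures, so the spread between 2 arrays may be partly technical.

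When antigen binds the B cell receptor, Src-family and Syk kinases start the activating signal, and the kinase Lyn also phosphorylates tyrosine motifs in the tails of inhibitory receptors. CD22, a lectin for sialic acid, and CD72 recruit the tyrosine phosphatase that Ptpn6 encodes, while the IgG Fc receptor of Fcgr2b recruits the lipid phosphatase that Inpp5d encodes. CD22 is known for restraining signals of IgM receptors, and the tail of IgG has been reported to weaken this restraint. The question put by the design is whether antigen-induced genes differ between the IgM and the IgMG receptor.

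Among the 7 genes, Cd22 had the largest difference between the responses of the receptors. Its signal with HEL was near the unstimulated level in IgMG cells and at 50.1% of it in IgM cells. Ptpn22 was higher with HEL under either receptor, Inpp5d was called higher in IgM cells, and Fcgr2b was called lower in IgM cells. Cd5 was also higher under either receptor, but it was bright enough to be tested only through its stimulated arrays. The differences between the receptors did not pass the test over all probe sets.

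Values are MAS5 signals on a linear scale unless called log2, and a signal of 1 probe set is not set against that of another. Log2 changes are on log2(signal + 16), with standard errors (SE) of a limma fit over all 8 arrays, and a change was called at a Benjamini-Hochberg adjusted p under 0.05 over 7453 tested probe sets. Fewer cells of a type and less RNA per cell cannot be told apart in these samples. With 2 arrays against 2, the smallest two-sided p of an exact permutation test is 0.333, so p-values are those of limma, where all probe sets inform the spread.

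Median signal lay between 40.5 and 47.7 over the 8 arrays. All 9 B cell markers on the array were bright enough to be tested, with summed signals of 33247 and 28559.5 with HEL against 33679.8 and 32855 without in IgMG cells, and of 28078 and 32278 with HEL against 37134 and 35324 without in IgM cells. In IgMG cells 2 of the 9 were called lower by limma, Cd79b and Spib, and 1 higher, with a median log2 change of 0.07. In IgM cells 3 were called lower, Cd79b, Pax5 and Spib, and 1 higher, with a median of -0.37, beside the falls of Cd22 and Fcgr2b. The log2 change of Cd79a, which encodes a signal chain of the receptor, was 0.07 ± 0.17 in IgMG and 0.18 ± 0.17 in IgM cells. The antigen response itself was plain: Egr1, an immediate-early factor, had signals of 2251 and 2619.5 with HEL against 78.7 and 114 without in IgMG cells, and of 3396 and 2476 with HEL against 72.7 and 136 without in IgM cells. Nr4a1, another, had 1601 and 1276 against 48.2 and 142 in IgMG cells, and 3120.5 and 3023 against 46.3 and 51.6 in IgM cells. The second unstimulated IgMG array stood apart in markers of other cells, with a summed signal of 2429.6 for 8 NK cell markers against 235 to 584 on the other arrays, and of 14792 for 13 myeloid markers against 1522 to 5764. The second HEL-stimulated IgM array had a 5'/3' signal ratio of Gapdh, a sign of RNA or labelling quality, of 0.755 against 0.140 to 0.395 on the others.

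**Figure D1:**
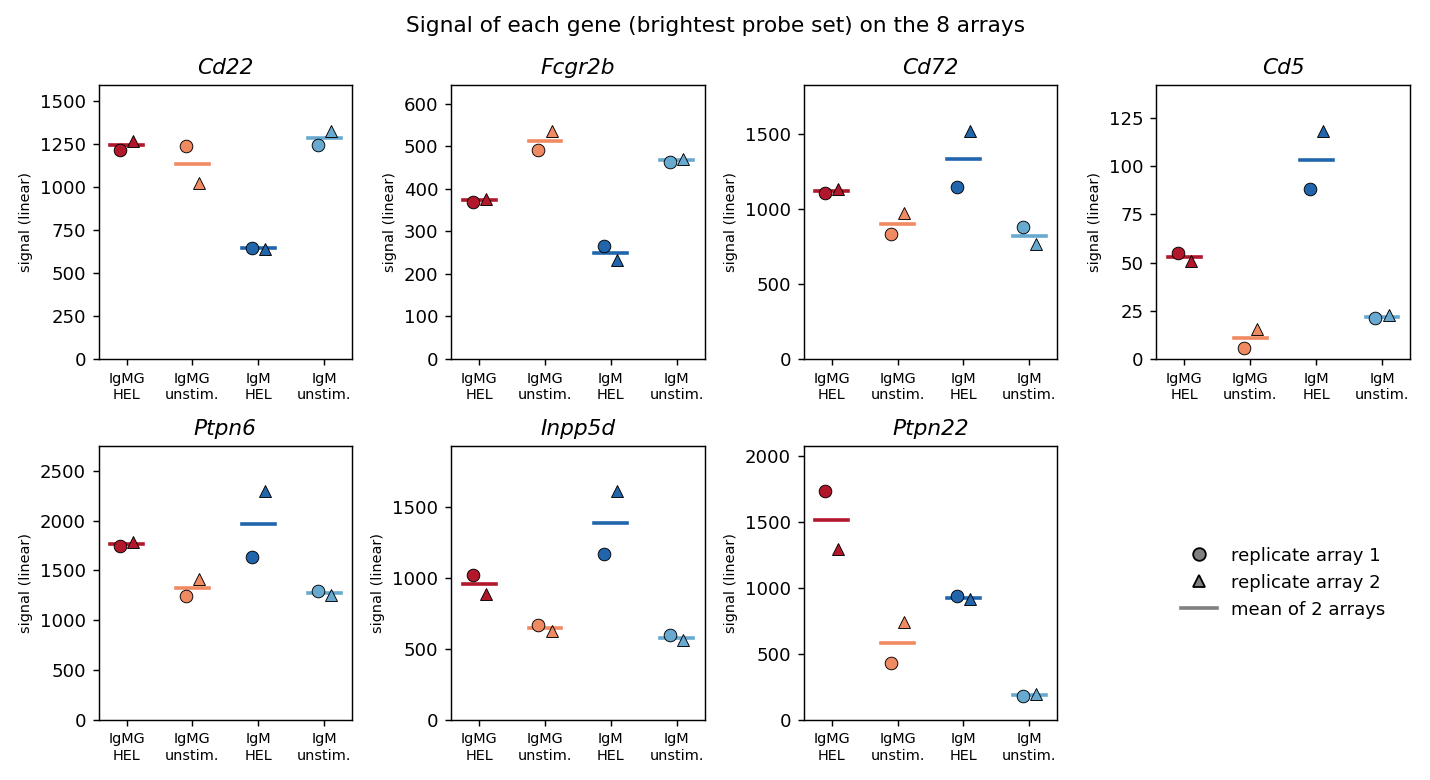
Signal (linear scale, from 0) of the brightest probe set of each gene on the 8 arrays, by group; circles and triangles are the replicate arrays and the bar is their mean. Cd22 stood at 645 and 641 in HEL-stimulated IgM cells and between 1020.4 and 1326 on the other arrays. Ptpn22 and Cd5 were higher with HEL under both receptors, Cd5 being bright enough to be tested only through its stimulated arrays.

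Cd22 encodes the sialic acid-binding receptor that is the best known restraint on the IgM receptor. Its RefSeq promoter window, from 250 bases before to 50 bases after an annotated start on GRCm38.p6, is shown because the receptors differed most in the response of this gene among the 7; no searched motif lay in it, so it has no capitals.
Cd22 (chr7:30878979-30879278, minus strand): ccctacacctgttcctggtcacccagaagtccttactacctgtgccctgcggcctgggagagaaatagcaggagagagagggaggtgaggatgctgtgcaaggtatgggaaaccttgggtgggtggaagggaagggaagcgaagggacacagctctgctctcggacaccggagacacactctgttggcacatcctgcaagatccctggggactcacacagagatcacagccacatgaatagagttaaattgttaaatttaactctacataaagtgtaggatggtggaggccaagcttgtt

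In IgMG cells Cd22 had signals of 1214 and 1265 with HEL, against 1238 and 1020.4 without. In IgM cells it had 645 and 641 with HEL, against 1242 and 1326 without. The arrays with and without HEL overlapped in IgMG cells, and in IgM cells both stimulated arrays lay far below both unstimulated ones and nearly on top of each other. The means were 1239 ± 35.9 and 1129 ± 154 in IgMG cells and 643 ± 2.97 and 1284 ± 59.0 in IgM cells (SD, n = 2 arrays each). From low to high, the order of the groups was IgM with HEL, IgMG unstimulated, IgMG with HEL and IgM unstimulated. The lowest group lay apart, and each of the other 3 overlapped its neighbour in range.

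Cd22 fell with HEL in IgM cells by 0.98 ± 0.15 (SE) on the log2 scale, with an adjusted p = 0.00393 in limma. The call held under all 18 variations of the processing that were run, with changes from -1.03 to -0.90. In IgMG cells the log2 change was 0.14 ± 0.15, with a 95% interval from -0.20 to 0.48 and an adjusted p = 0.648. The responses differed by 1.12 ± 0.21 (IgMG minus IgM, 95% interval 0.64 to 1.59), with an unadjusted p = 5.03e-04 but an adjusted p = 0.412 over all probe sets, so the difference was not called. With HEL present, Cd22 was at a log2 difference of 0.93 ± 0.15 between IgMG and IgM cells (adjusted p = 0.118 in limma), and without HEL of -0.19 ± 0.15 (adjusted p = 0.995). The only probe set of Cd22 has an identifier of the kind that may match related transcripts, and such matching was not tested.

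Fcgr2b encodes the inhibitory receptor for the Fc part of IgG, which shuts down signalling when antigen arrives in immune complexes. Its signals in IgMG cells were 369 and 376 with HEL, against 490.0 and 537 without. Those in IgM cells were 266 and 233 with HEL, against 463 and 470.2 without. The arrays with HEL lay below those without under either receptor, and both stimulated IgM arrays lay below both stimulated IgMG arrays. Myeloid cells express Fcgr2b too, and with HEL their 13 markers on the array summed to 4882 and 5764 in IgMG against 4152 and 1522 in IgM cells. Among the 11 of them tested, the median log2 difference between stimulated IgMG and IgM cells was 1.11, with 4 at an unadjusted p under 0.05 and 0 called by limma. The part of myeloid cells in the Fcgr2b values was not tested.

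The fall of Fcgr2b was called in IgM cells, at a log2 change of -0.86 ± 0.16 (adjusted p = 0.00862 in limma). The call was lost without the first unstimulated IgM array (-0.88, adjusted p = 0.0561) and without the second HEL-stimulated IgM array (-0.77, adjusted p = 0.0574). In IgMG cells the change of -0.44 ± 0.16 was not called (adjusted p = 0.136), and the difference of the responses was 0.42 ± 0.22, with a 95% interval from -0.08 to 0.92. Like those of Cd22 and Ptpn6, the probe set of Fcgr2b has an identifier of the kind that may match related transcripts. Mouse Fcgr3 is a close relative of Fcgr2b. The probe set of Fcgr3 itself was too dim to be tested, with signals of 6.1 to 44.8 over the 8 arrays.

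Cd72 encodes a lectin-like receptor that binds the semaphorin of Sema4d. Cd72 signals of IgMG cells were 1109 and 1135 with HEL, against 837 and 971 without. Those of IgM cells were 1147 and 1524 with HEL, against 882 and 766 without. Stimulated arrays were the higher under each receptor, and the highest value was that of the array with the highest 5'/3' ratio.

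Cd72 rose by 0.68 ± 0.18 on the log2 scale in IgM cells, with an adjusted p = 0.0360 in limma that was close to the threshold. The call was lost in 11 of 18 variations, with adjusted p-values of up to 0.202. It was lost without either unstimulated IgM array (first, adjusted p = 0.0984; second, 0.172), without the second HEL-stimulated IgM array (0.47, adjusted p = 0.202) and without either HEL-stimulated IgMG array (adjusted p = 0.0711 and 0.0715). In IgMG cells the change was 0.31 ± 0.18 (adjusted p = 0.346). The difference of the responses was -0.37 ± 0.25, with a 95% interval from -0.93 to 0.20, and turned to 0.030 once the Gapdh ratio entered the fit.

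Cd5 encodes a scavenger-type receptor of T cells and B-1a cells that dampens antigen receptor signals. Cd5 had signals in IgMG cells of 54.9 and 51.0 with HEL, against 5.6 and 15.8 without. Cd5 signals in IgM cells were 88.0 and 118.5 with HEL, against 21.1 and 22.8 without. All 4 unstimulated arrays were below 24.5, the lowest mean among tested probe sets, so Cd5 entered the test only through its stimulated arrays and had to differ.

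The log2 change of Cd5 was 1.39 ± 0.29 in IgMG cells (adjusted p = 0.0289 in limma) and 1.64 ± 0.29 in IgM cells (adjusted p = 0.00771), both called, and the offset of 16 understates it at such signals. No fold of the signals is given, since the unstimulated arrays were this dim. The difference of the responses was -0.25 ± 0.41, with a 95% interval from -1.17 to 0.68 that covers a difference in either direction. In IgMG cells the call was lost in 7 variations, among them those without either HEL-stimulated IgMG array (adjusted p = 0.142 and 0.172), without the first unstimulated IgMG array (0.0886) and without either unstimulated IgM array (0.0540 and 0.0545). In IgM cells it was lost without the first unstimulated array (0.0581) and without the second HEL-stimulated array (0.0657). T cells carry CD5 too; of 15 T cell markers 12 were on the array, and Cd3d, Cd3e, Cd3g, Cd8a, Cd8b1 and Cd28 were below 24.5 on every array. The list summed to 1176 and 1095.5 with HEL against 1874 and 1618 without in IgMG cells, and to 1093.5 and 1154.5 with HEL against 1872 and 1676 without in IgM cells. Most of each sum was Cd2, which mouse B cells also express, at 819.8 and 761 with HEL against 1372 and 1024.5 without in IgMG cells, and 804.9 and 906.5 against 1588 and 1416 in IgM cells. Cd4 had 89.8 and 40.8 with HEL against 13.5 and 73.4 without in IgMG cells. In IgM cells it had 58.6 and 51.3 against 25.4 and 13.7, a move in the direction of Cd5 (log2 change 1.01 ± 0.51, not called). It was the highest of the 4 T cell markers tested there, which ranged from -1.10 to 1.01 with a median of -0.39. Of these 4, 0 were called higher and 1 lower by limma. In IgMG cells the 4 ranged from -1.42 to 0.59 with a median of -0.19, and 0 were called. The part of T cells in the Cd5 values was not tested. Of 4 B-1 cell markers 2 were on the array and neither was bright enough to be tested, with sums of 18.3 to 104 in IgMG and 21.6 to 51.1 in IgM cells.

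Ptpn6 encodes the tyrosine phosphatase that binds the phosphorylated tails of CD22 and CD72. For IgMG cells its signals were 1748 and 1789.8 with HEL, against 1242 and 1409.7 without. For IgM cells they were 1631 and 2294 with HEL, against 1291 and 1254 without. Stimulated arrays were the higher under either receptor without overlap, and the stimulated groups overlapped each other.

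The log2 changes of Ptpn6 were 0.41 ± 0.18 in IgMG cells (adjusted p = 0.207 in limma) and 0.60 ± 0.18 in IgM cells (adjusted p = 0.0543), and neither was called. In IgM cells the value passed in 4 variations, for example without the first HEL-stimulated IgM array (0.84, adjusted p = 0.0193), and it was 0.35 without the second. The difference of the responses was -0.18 ± 0.25, with a 95% interval from -0.75 to 0.38, and turned positive without the second HEL-stimulated IgM array (0.06).

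Inpp5d encodes the inositol lipid phosphatase that acts with Fcgr2b and removes the lipid signal made by PI 3-kinase. IgMG cells had Inpp5d signals of 1025 and 888 with HEL, against 667 and 624 without. IgM cells had 1169.5 and 1613 with HEL, against 599.9 and 561 without. No stimulated array overlapped an unstimulated one, and both stimulated IgM arrays lay above both stimulated IgMG arrays.

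Inpp5d rose with HEL in IgM cells by 1.22 ± 0.18 on the log2 scale (adjusted p = 0.00364 in limma), a call that held under all 18 variations, with changes from 0.99 to 1.45. In IgMG cells the change of 0.55 ± 0.18 was not called (adjusted p = 0.116). The difference of the responses was -0.67 ± 0.26, with a 95% interval from -1.25 to -0.08, an unadjusted p = 0.0295 and an adjusted p = 0.464. It was -0.44 without the second HEL-stimulated IgM array, where Inpp5d was highest, and -0.30 once the Gapdh ratio entered the fit. A dimmer probe set of Inpp5d, with signals of 9.8 to 77.8, had log2 changes of -0.16 ± 0.46 in IgMG and 0.77 ± 0.46 in IgM cells, neither called and the first of opposite sign.

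Ptpn22 encodes a tyrosine phosphatase that acts on Src- and Syk-family kinases and is known for variants linked to autoimmunity. In IgMG cells it had signals of 1735 and 1296 with HEL, against 431 and 741.5 without. In IgM cells it had 937 and 919 with HEL, against 179 and 196 without. The order of the groups from low to high was IgM unstimulated, IgMG unstimulated, IgM with HEL and IgMG with HEL, with no overlap between neighbours.

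Ptpn22 rose with HEL under both receptors, by 1.38 ± 0.25 on the log2 scale in IgMG cells (adjusted p = 0.0184 in limma) and by 2.22 ± 0.25 in IgM cells (adjusted p = 9.50e-04). The call held in all 18 variations in IgM cells. In IgMG cells it was lost in 3, without the first HEL-stimulated IgMG array (1.17, adjusted p = 0.123), without the second (1.59, 0.0889) and with only the 4 IgMG arrays in the fit (0.0759). The difference of the responses was -0.84 ± 0.35, with a 95% interval from -1.64 to -0.03, an unadjusted p = 0.0427 and an adjusted p = 0.484. It was -0.46 without the second unstimulated IgMG array and -1.22 without the first.

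Before antigen, Ptpn22 was at 586 ± 219 in IgMG cells and 187 ± 12.1 in IgM cells (SD, n = 2 arrays each), a log2 difference of 1.52 ± 0.25 with an unadjusted p = 1.96e-04 and an adjusted p = 0.979 in limma, so it was not called. The higher of the unstimulated IgMG values came from the array with the highest NK and myeloid marker sums. Without that array the difference was 1.14, and without the other unstimulated IgMG array it was 1.90 and was called (adjusted p = 0.00686). T cells also express Ptpn22. Their marker sums were 1874 and 1618 in unstimulated IgMG and 1872 and 1676 in unstimulated IgM cells, most of it Cd2, but Zap70, a kinase of T and NK cells, had 357 and 329 in unstimulated IgMG against 94.7 and 88.2 in unstimulated IgM cells. That is a log2 difference of 1.74 ± 0.48 (not called by limma, adjusted p = 0.979), in the direction of Ptpn22 and of like size. Dimmer Zap70 probe sets had 1.37 and 0.06. Zap70 was the highest of the 4 T cell markers tested, which ranged from -0.33 to 1.74 with a median of 0.31. Of the 12 on the array, 6 lay below 24.5 on every array. The 7 NK cell markers tested had a median of 1.04. NK cell markers summed to 296.5 and 2429.6 in unstimulated IgMG and to 235 and 283 in unstimulated IgM cells. Marginal zone B cell markers, 5 of 6 on the array, summed to 1309 and 1363 in unstimulated IgMG and to 749.9 and 960.0 in unstimulated IgM cells. The part of these cells in the Ptpn22 difference was not tested. With HEL, Ptpn22 was at a log2 difference of 0.68 ± 0.25 between IgMG and IgM cells (adjusted p = 0.286). A further Ptpn22 probe set had signals of 0.8 to 10.8 and was not tested.

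**Figure D2:**
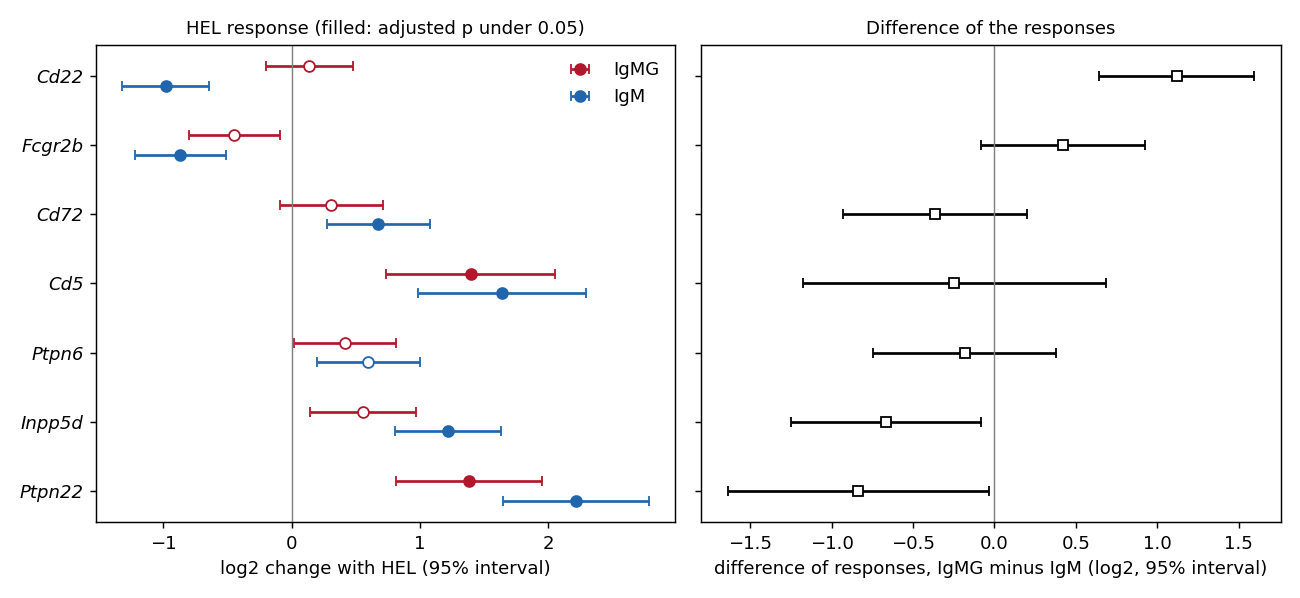
Left, log2 change with HEL of each gene in IgMG (red) and IgM (blue) cells, with 95% intervals of the limma fit; filled points had an adjusted p under 0.05. Right, the difference of the responses, IgMG minus IgM; the intervals of Cd22, Inpp5d and Ptpn22 leave out 0 before adjustment, and none passed after it.

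Counted together, HEL raised 2 of the 7 genes in IgMG cells, Cd5 and Ptpn22, and lowered 0, where over all tested probe sets 3.23% were called higher and 2.42% lower. In IgM cells it raised 4, Cd72, Cd5, Inpp5d and Ptpn22, and lowered 2, Cd22 and Fcgr2b, where 6.7% of all tested probe sets were called higher and 7.31% lower. Of the 421 probe sets called in IgMG cells 241 were higher and 180 lower, a split that became 235 and 101 with arrays centred on their median. These genes were chosen with results of the same arrays known, so the counts describe them and carry no test. The median log2 change of the 7 was 0.41 in IgMG and 0.68 in IgM cells, beside -0.07 and -0.04 over 5603 genes tested. Without the second unstimulated IgMG and the second HEL-stimulated IgM array together, an alternative chosen after seeing the data, 2 genes were called in IgMG and 5 in IgM cells. In IgMG cells 0 were called without either HEL-stimulated IgMG array, and 1 without the first unstimulated IgMG array or either unstimulated IgM array. In IgM cells 3 were called without the first unstimulated IgM array or without the second HEL-stimulated one. Cd5 is counted among the 7 although it entered the test only through its stimulated arrays.

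Non-overlap of 2 arrays against 2 was common. With HEL, 5 of the 7 genes lay higher without overlap in IgMG cells and 1 lower, where 23.7% and 29.4% of all tested probe sets did so. In IgM cells 5 lay higher and 2 lower, where 27.6% and 30.7% of all did so. Between the receptors, 3 genes lay higher in IgMG cells and 2 lower without HEL, where 16.4% and 15.1% of all did so. With HEL, 3 lay higher in IgMG cells (Cd22, Fcgr2b and Ptpn22) and 3 lower (Cd72, Cd5 and Inpp5d), where 23.9% and 24.4% of all did so. Before adjustment, 5 of the 7 genes had a p under 0.05 for the change with HEL in IgMG cells, where 22.3% of all tested probe sets did, and 7 of 7 in IgM cells, where 28.7% did.

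Between the receptors 0 of the 7 genes were called by limma in any comparison. For the difference of the responses 0% of probe sets were called, and 3 of the 7 genes had an unadjusted p under 0.05, Cd22, Inpp5d and Ptpn22, where 10.1% of all tested probe sets did. In unstimulated cells 0% of probe sets were called, and 1 of the 7 genes, Ptpn22, had an unadjusted p under 0.05, where 4.6% of all did. With HEL, 0.0134% were called, and 5 of the 7 genes had an unadjusted p under 0.05, where 14% of all did. Of these 5, Cd22 (0.93), Ptpn22 (0.68) and Fcgr2b (0.55) had a higher and Cd5 (-0.78) and Inpp5d (-0.52) a lower log2 level in IgMG cells. These comparisons share arrays, so they do not count as separate evidence, and receptor and number of mice pooled differ together in each.

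Other genes around these receptors were taken from 4 lists. Over all 5603 genes tested, 203 were called higher and 161 lower with HEL in IgMG cells, and 385 higher and 471 lower in IgM cells. The lists were chosen with results of the same arrays known, so their counts carry no test. Of 14 other inhibitory receptors 4 were on the array and 3 were tested, and 0 were called by limma with HEL under either receptor; 1 had an unadjusted p under 0.05 in IgMG cells and 0 in IgM cells. Pirb, a paired immunoglobulin-like receptor, had log2 changes of -1.01 ± 0.34 in IgMG and -0.48 ± 0.34 in IgM cells. Its signals were 104 and 78.8 with HEL against 133 and 289.9 without in IgMG cells, the highest on the array with the highest myeloid marker sum; myeloid cells express Pirb too, and their part in the value was not tested. Pecam1, an adhesion receptor with inhibitory motifs, had -0.38 ± 0.31 in IgMG and 0.29 ± 0.31 in IgM cells.

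Of 16 tested genes listed as cytoplasmic or other negative regulators, 1 fell and 0 rose in IgMG cells, and 2 fell and 0 rose in IgM cells. Csk, the kinase that switches off Src-family kinases, fell in IgM cells by 0.91 ± 0.17 (adjusted p = 0.00907 in limma) and had -0.50 ± 0.17 in IgMG cells. A dimmer Csk probe set had -0.14 ± 0.33 in IgM cells (adjusted p = 0.829) and the opposite sign in IgMG cells (0.49 ± 0.33), neither called. Ptprc, the CD45 phosphatase, is counted on this list although it opens Src-family kinases. It fell in IgM cells by 0.65 ± 0.16 (adjusted p = 0.0271 in limma) and had 0.11 ± 0.16 in IgMG cells. The difference was 0.76 ± 0.22 (adjusted p = 0.412), and the dimmer Ptprc probe set had the opposite sign in each of these. Ptpn18, a phosphatase of the PEST family, had -0.77 ± 0.19 in IgMG cells (adjusted p = 0.0536) and 0.39 ± 0.19 in IgM cells (0.221), a difference of -1.16 ± 0.27 (adjusted p = 0.412). The gene that fell in IgMG cells was Dgka, a diacylglycerol kinase, at -0.82 ± 0.18 (adjusted p = 0.0400), named after its value was seen.

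Of 16 tested activating partners of the receptor, 1 rose and 1 fell in IgMG cells, and 1 rose and 5 fell in IgM cells. Blnk, the adaptor that links Syk to phospholipase C, fell in IgM cells by 1.18 ± 0.18 (adjusted p = 0.00393 in limma) and had -0.22 ± 0.18 in IgMG cells. The difference was 0.96 ± 0.25 (adjusted p = 0.412). Another Blnk probe set, with a mean signal of 1340 against 1929, did not show the IgM fall (-0.17 ± 0.21, adjusted p = 0.645). It had -0.68 ± 0.21 in IgMG cells (adjusted p = 0.0969), so its difference had the opposite sign. Cd79b, a signalling chain of the receptor, fell by 0.63 ± 0.14 in IgMG cells (adjusted p = 0.0400) and by 1.01 ± 0.14 in IgM cells (adjusted p = 0.00274). Syk, the kinase bound by that chain, fell in IgM cells by 0.91 ± 0.18 (adjusted p = 0.0129) and had -0.59 ± 0.18 in IgMG cells. Cd40, the costimulatory receptor for T cell help, fell in IgM cells by 0.85 ± 0.17 (adjusted p = 0.0119) and had -0.37 ± 0.17 in IgMG cells. The gene called higher under both receptors was Blk, a Src-family kinase of B cells, at 0.69 ± 0.14 in each (adjusted p = 0.0295 in IgMG and 0.0154 in IgM cells), named after its values were seen. A dimmer Blk probe set had 0.24 in IgMG cells and was not called there (adjusted p = 0.449). The fifth gene that fell in IgM cells was Pik3cd, a PI 3-kinase subunit, at -0.67 ± 0.18 (adjusted p = 0.0389), likewise named after its value was seen, and its dimmer probe set had the opposite sign (0.79).

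Of 7 genes for ligands of CD22 and CD72 and for sialic acid synthesis, 1 fell in IgMG cells and 3 fell in IgM cells, and 0 rose. Sema4d, the CD72 ligand, fell by 0.76 ± 0.14 in IgMG cells (adjusted p = 0.0184 in limma) and by 0.82 ± 0.14 in IgM cells (adjusted p = 0.00605). Cmas, which activates sialic acid, fell in IgM cells by 1.05 ± 0.27 (adjusted p = 0.0342) and had -0.61 ± 0.27 in IgMG cells. A Cmas probe set close to the lowest tested (mean signal 25.25) had -0.30 ± 0.36 in IgM and -0.48 ± 0.36 in IgMG cells, neither called. Slc35a1, which carries the activated sugar into the Golgi, fell in IgM cells by 0.86 ± 0.19 (adjusted p = 0.0192) and had -0.44 ± 0.19 in IgMG cells. Nans, a sialic acid synthase, had -0.24 ± 0.19 in IgMG and 0.34 ± 0.19 in IgM cells. Over the 3 tested receptors the median log2 changes in IgMG and IgM cells were -1.01 and -0.48, which are the values of Pirb itself. Of the other tested receptors, Ceacam1 had signals of 70.1 and 43.4 with HEL against 70.7 and 263 without in IgMG cells. Pecam1 had a mean signal of 25.3, close to the lowest tested. The medians were -0.20 and -0.30 for the negative regulators and -0.24 and -0.21 for the activating partners. They were -0.44 and -0.63 for the ligands and sialic acid genes, beside -0.07 and -0.04 over all genes tested.

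**Figure D3:**
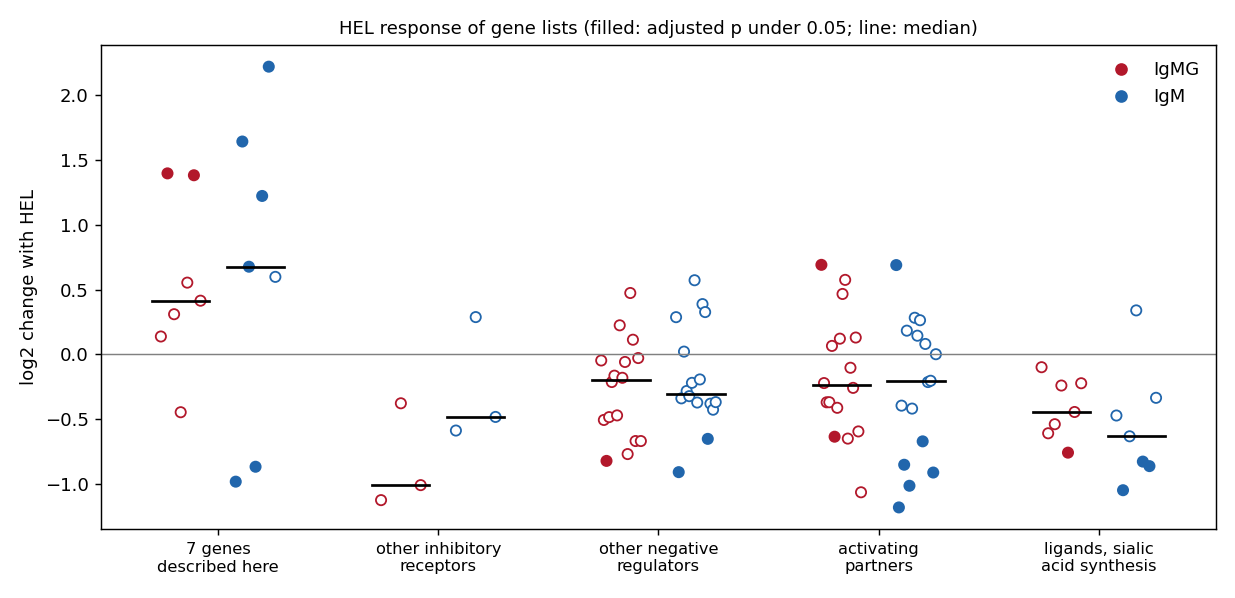
Log2 change with HEL (y axis) of each tested gene of the lists (x axis) in IgMG (red) and IgM (blue) cells; filled points had an adjusted p under 0.05 and the line is the median. The 7 genes described here reached from -0.44 to 1.39 in IgMG and from -0.98 to 2.22 in IgM cells.

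Genes were ranked by how closely their profile over the 8 arrays followed that of 3 members, as the root mean square (RMS) difference of log2 values after centring each gene on its mean. The RMS spread of Cd22 itself around its mean was 0.40. Its closest profile among 5603 genes was that of Cramp1l (RMS difference 0.093), with signals of 218 and 239.9 in stimulated IgMG, 261 and 226 in unstimulated IgMG, 129.5 and 133 in stimulated IgM and 247 and 263 in unstimulated IgM cells. Nfyc (0.122), Krtcap2 (0.139), Mrpl18 (0.140) and Pdcd4 (0.143) came next. Like Cd22, each of the 5 had its 2 lowest values in stimulated IgM cells, which follows from choosing them by likeness to Cd22 on these same arrays.

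For Cd5, whose own RMS spread was 0.85, the closest were Cxcr4 (0.152), Nhp2 (0.234) and Gdap10 (0.236). Cxcr4, a chemokine receptor, had 522 and 408 in stimulated IgMG, 132 and 174 in unstimulated IgMG, 749.8 and 724 in stimulated IgM and 203 and 223 in unstimulated IgM cells. For Ptpn22, whose own RMS spread was 1.10, the closest were Stat4 (0.442), Fos (0.445) and Lilr4b (0.492), all less close than those of Cd22 or Cd5.

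**Figure D4:**
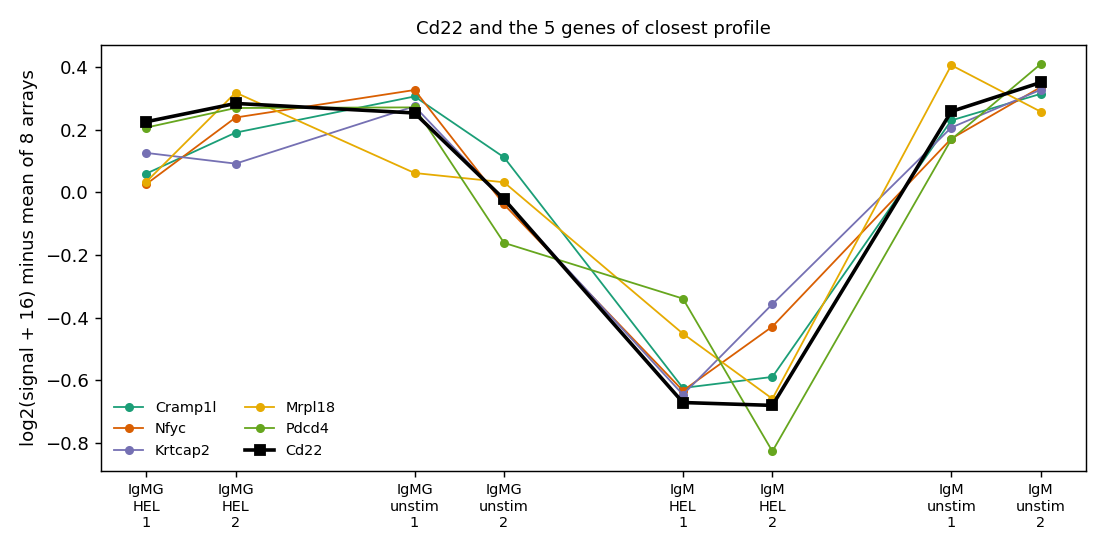
Log2(signal + 16) minus the gene's mean over 8 arrays (y axis) on each array (x axis, by group and replicate) for Cd22 (black squares) and the 5 genes of closest profile; lines join the points of a gene and imply no order. All 6 genes were lowest in HEL-stimulated IgM cells, which follows from choosing the 5 by likeness to Cd22 on these arrays.

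The RefSeq promoter windows (GRCm38.p6, 300 bases) of the 7 genes, 8 windows in all since Ptpn22 had 2, were searched on both strands for 6 motifs. The PU.1-type ETS letters GAGGAAGT, of a factor family of B and myeloid cells, lay in 3 of the 8 windows and in 3.2% of 32851 windows of all genes. The 3 windows are those of Inpp5d, Cd72 and Cd5, shown with the motif and any other match in capitals.
Inpp5d (chr1:87620062-87620361, plus strand): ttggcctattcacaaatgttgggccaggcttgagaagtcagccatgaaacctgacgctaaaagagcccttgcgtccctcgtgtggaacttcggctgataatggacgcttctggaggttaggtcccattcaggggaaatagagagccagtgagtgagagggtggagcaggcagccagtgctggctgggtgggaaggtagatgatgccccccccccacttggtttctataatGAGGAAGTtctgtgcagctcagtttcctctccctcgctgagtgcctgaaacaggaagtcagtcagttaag
Cd72 (chr4:43454577-43454876, minus strand): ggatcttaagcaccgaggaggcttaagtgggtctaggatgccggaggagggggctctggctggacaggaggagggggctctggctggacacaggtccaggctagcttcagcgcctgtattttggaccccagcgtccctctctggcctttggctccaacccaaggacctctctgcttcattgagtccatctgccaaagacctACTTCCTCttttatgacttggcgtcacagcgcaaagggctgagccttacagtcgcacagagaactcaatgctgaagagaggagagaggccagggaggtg
Cd5 (chr19:10738925-10739224, minus strand): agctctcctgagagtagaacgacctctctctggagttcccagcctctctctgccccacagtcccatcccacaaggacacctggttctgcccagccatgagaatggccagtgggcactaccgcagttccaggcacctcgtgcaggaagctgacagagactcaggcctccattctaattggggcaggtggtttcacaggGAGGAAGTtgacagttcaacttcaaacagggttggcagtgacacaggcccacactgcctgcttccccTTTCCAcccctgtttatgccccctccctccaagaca

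Along the gene's strand the match began 20 bases before the start in Inpp5d, 49 in Cd72, where it lies on the opposite strand as its reverse complement, and 53 in Cd5. The other capitals in Cd5 are a match to the NFAT letters TGGAAA, likewise as the reverse complement, which 2 of the 8 windows held, those of Cd5 and Ptpn6, and 21.4% of all windows. The octamer ATGCAAAT (1.74% of all windows), the AP-1 letters TGANTCA (7.81%), the Egr letters GCGTGGGCG (0.612%) and the E-box CACGTG (7.15%) were in 0 of the 8. In these windows no match overlapped another, and a match is a description of sequence, not of binding.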

How the data were processed

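RNA of 8 pools of sorted mouse follicular B cells was measured, and titles gave each array's group and its experiment number, used here as the replicate number. The deposited value of a probe set is a linear intensity, made with MAS5 per the submitters' processing notes. After trimming 2% at each end, the deposited intensities of every array averaged 150.1, so arrays had been scaled to a common mean, which assumes a like total signal on each. The sources used here give neither other settings nor detection calls.

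Of 12488 probe sets, 66 controls were left out. Signals were used as log2(signal + 16), and the brightest 60% by mean over all 8 arrays were tested, 7453 of 12422, down to a mean of 24.5. Symbols came from the platform annotation, with 10833 probe sets of 1 symbol, 396 of several and 1193 of none; the 9 probe sets of the 7 genes matched the GRCm38.p6 gene table by gene identifier, with 0 symbols changed. A gene is given by its brightest probe set. Tests were two-sided in limma 3.58.1 (R 4.3.3), with a coefficient per group, eBayes with a trend (4 residual and 4.87 prior degrees of freedom) and Benjamini-Hochberg adjustment over all tested probe sets. Scripts were tested on simulated data. The number of arrays limits the precision.

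Members, lists, rules and variations were chosen with earlier results of these data known. Named were all members, Cd79a, Cd79b, Egr1 and Nr4a1, and up to 4 genes of each of 4 lists: the 2 with the smallest p for the difference of responses and the 2 with the largest called change in IgM cells. Spib, Pax5, Cd2, Cd4 and Zap70 of the marker lists were named after their values were seen. Of the marker lists not given with the results, those of 3 follicular genes summed to 2787.5 to 3717 on IgMG and 1891 to 4592.5 on IgM arrays, those of 4 plasma cell genes to 383 to 954 and 448 to 545, and those of 5 erythroid genes to 16811 to 25935 and 17357 to 21646. Variations changed scaling, offset, filter and trend, fitted the arrays of a comparison alone, added a replicate block or the Gapdh ratio, and left out each array. Figures come from matplotlib 3.10.9 (Python 3.11.15).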

Additional observations from a re-analysis of the deposited data

Results flagged for a closer look

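Cd22 stood out because both HEL-stimulated IgMG arrays lay above the mean of the unstimulated IgMG arrays, by 0.11 and 0.17 on the log2 scale. Both HEL-stimulated IgM arrays lay below the mean of the unstimulated IgM arrays, at -0.97 and -0.98. The rise in IgMG cells rested on the second unstimulated array (1020.4), since the first (1238) lay between the stimulated arrays (1214 and 1265). Over arrays left out, the IgMG change of Cd22 ranged from 0.0012 to 0.28. The other 6 genes moved in 1 direction on all 4 stimulated arrays. The difference of the responses, IgMG minus IgM, was 1.12 on the log2 scale; it had an adjusted p = 0.412 in limma, with a range from 0.0965 to 0.922 over 17 variations, and was not called in any. With the arrays of the highest marker sums and of the highest 5'/3' ratio both left out, the Cd22 difference was 0.98 (adjusted p = 0.454).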

How the results depend on the processing

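In IgM cells the calls of Cd22, Inpp5d and Ptpn22 held in all 18 planned variations. Leaving out 1 array, or the second unstimulated IgMG and second HEL-stimulated IgM array together (chosen after seeing the data), gave 339 to 1283 called probe sets in IgM cells (1044 with all arrays; 339 and 495 when unstimulated IgM array 1 or 2 was left out, 359 for HEL-stimulated IgM array 2) and 3 to 7 of the 7 genes. In IgMG cells it gave 58 to 524 (421 with all arrays; 94 and 58 when HEL-stimulated IgMG array 1 or 2 was left out, 270 and 266 for unstimulated IgM array 1 or 2) and 0 to 2 genes. It gave 0 to 13 probe sets for the difference of the responses, 0 to 35 between unstimulated cells with 0 to 1 genes, and 0 to 5 between stimulated cells. The 13 and 35 were without the first unstimulated IgMG array.

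With the Gapdh ratio as a covariate, 605 probe sets were called in IgM and 161 in IgMG cells. The IgMG count was 256 with no filter, 233 without the trend, 159 with the 4 IgMG arrays alone and 275 with a replicate block, and 1, 2, 0 and 2 of the 7 genes were called; 1 was called with the brightest 40% tested, where Cd5 could not be tested. For the difference of the responses, offset 64 gave 1. Between stimulated cells the count of 1 became 0 with offset 1, no filter, no trend or the covariate, 5 with offset 64, 2 with median centring, 4 with the 4 stimulated arrays alone and 3 with the replicate block. With both arrays left out, 4 were called for the difference and 17 between unstimulated cells. The cause was not tested.

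Signs turned for values that were not called. Over arrays left out, the difference of the responses of Cd5 ranged from -0.52 and that of Ptpn6 from -0.43, and Ptpn6 between stimulated cells from -0.37. The difference of Cd5 became 0.19 with offset 1, 0.23 with the covariate, 0.03 without the second unstimulated IgMG array and 0.22 without both arrays. That of Ptpn6 became 0.21 with the covariate, 0.06 without the second HEL-stimulated IgM array and 0.15 without both, and that of Cd72 became 0.030 with the covariate. Between unstimulated cells Ptpn6 became -0.0093 with median centring and -0.035 without the second unstimulated IgMG array or without both. Between stimulated cells the covariate turned Cd72 to 0.17 and Ptpn6 to 0.27, and Ptpn6 became 0.12 without the second HEL-stimulated IgM array or without both.

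The replicate numbers are experiment numbers in the titles, so equal numbers may mark arrays of 1 experiment, though the labels do not say that these shared mice, a day or handling. Over the 6 pairs of groups, deviations of same-numbered arrays correlated between -0.16 and 0.02. With the number as a block 869 probe sets were called in IgM and 275 in IgMG cells, with 5 and 2 of the 7 genes, Cd72 being lost (adjusted p = 0.0519). The lowest correlation, between unstimulated groups, led to a crossed block added after seeing the data, which called 0 there. Dim probe sets such as that of Cd5 have the least signal over background.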
